A study of Mus musculus with 6 samples.

Results

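The metabotropic glutamate receptor mRNAs of the mouse cerebral cortex were described here for 6 receptors, Grm5, Grm2, Grm3, Grm4, Grm7 and Grm8. They were picked by gene symbol and are 6 of the 55421 genes of the deposited tables. Other receptors of the family were not analysed here. RNA-seq was performed on the cortex of 6 male wild-type C57BL/6J mice, 3 aged 6 months (mice 10, 11 and 17) and 3 aged 24 months (mice 2, 4 and 5), and the comparison asks how cortical mRNA levels differ between the ages. All mice were anaesthetised with isoflurane before cervical dislocation, and all had the same genotype and strain. Each library came from the powdered cortex of 1 mouse and was prepared from 10 ng of RNA with a kit for single cells and low input, so all cell types of the tissue were measured together and p-values measure the spread between these mice.

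Metabotropic glutamate receptors are G protein-coupled receptors that sense glutamate, the main excitatory transmitter of the cortex, and tune synaptic strength more slowly than glutamate-gated ion channels do. Group I receptors, here Grm5, couple to Gq and phospholipase C and sit mostly beside the postsynaptic density, where Homer and Shank proteins tether them. Group II receptors (Grm2 and Grm3) and group III receptors (Grm4, Grm7 and Grm8) couple to Gi/o, lower cyclic AMP and largely restrain transmitter release from nerve terminals. Grm3 is also abundant in astrocytes, and Grm7 is known for its place in the presynaptic active zone.

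Bases upstream of the start sites that RefSeq gives are shown because 5 of the 6 receptor mRNAs were lower at 24 months. RefSeq windows of 250 bases (build GRCm38.p6) were matched for 4 of the 6 receptors, Grm2 (chr9:106656110-106656359, minus strand), Grm3 (chr5:9725353-9725602, minus strand), Grm7 (chr6:110645348-110645597, plus strand) and Grm8 (chr6:28135147-28135396, minus strand). Grm4 and Grm5 had no entry. Where the table held several windows, 2 for Grm7 and 3 for Grm8, the one whose start site lay nearest to that of GENCODE vM21 was taken. The RefSeq start sites lay 17 (Grm7) to 182 bases (Grm3) from the GENCODE ones, and the windows of Grm7 and Grm8 reach 17 and 32 bases into the GENCODE gene. The windows are written 5' to 3' on the strand of the gene, with capitals at GGGCGG, the core of the GC box that Sp family factors bind.
Grm2: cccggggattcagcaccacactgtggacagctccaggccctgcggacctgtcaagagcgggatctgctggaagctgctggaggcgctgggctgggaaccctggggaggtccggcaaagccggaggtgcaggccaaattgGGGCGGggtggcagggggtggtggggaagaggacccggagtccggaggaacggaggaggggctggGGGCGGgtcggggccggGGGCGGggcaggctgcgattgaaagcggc
Grm3: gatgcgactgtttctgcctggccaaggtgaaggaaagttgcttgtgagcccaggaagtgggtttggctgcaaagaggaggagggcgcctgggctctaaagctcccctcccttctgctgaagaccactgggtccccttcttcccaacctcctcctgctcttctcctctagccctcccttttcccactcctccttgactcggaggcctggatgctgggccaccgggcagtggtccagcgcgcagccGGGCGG
Grm7: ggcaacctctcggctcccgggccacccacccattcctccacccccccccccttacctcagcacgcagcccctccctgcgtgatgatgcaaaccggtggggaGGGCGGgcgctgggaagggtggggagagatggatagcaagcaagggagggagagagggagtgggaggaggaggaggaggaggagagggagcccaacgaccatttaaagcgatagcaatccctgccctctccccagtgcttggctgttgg
Grm8: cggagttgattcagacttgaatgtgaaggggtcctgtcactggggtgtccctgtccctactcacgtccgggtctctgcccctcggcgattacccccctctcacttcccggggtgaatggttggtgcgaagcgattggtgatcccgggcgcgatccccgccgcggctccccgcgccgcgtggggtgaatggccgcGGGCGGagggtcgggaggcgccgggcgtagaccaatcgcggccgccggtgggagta
The 4 windows were rich in G and C, at 71.2% for Grm2, 62.4% for Grm3, 65.2% for Grm7 and 68.4% for Grm8, where the median of all such windows was 52.4%. GGGCGG was searched on both strands, and Grm2 held 3 matches while Grm3, Grm7 and Grm8 held 1 each. Of all 32817 windows of this length, 32.7% held it. TATAAA (in 12.4% of all windows), TGACGTCA (1.55%) and GCGGGGGCG (2.57%), the letters of a TATA box, a cyclic AMP response element and an Egr site, were likewise searched on both strands and had 0 matches in the 4 windows. GCGGGGGCG shares the letters GGGCG with the GC box, so their matches could overlap. These are matches of letters and not measured binding sites.

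The libraries held 29495379 to 36494240 counts on genes, and the 24-month libraries, which were shallower than the 6-month ones, had a count on more genes (40208 to 43561 against 33974 to 35651). Levels are given below as CPM, which are counts divided by library size after scaling with the TMM factors of edgeR, and as the deposited TPM, which is also divided by exonic length and allows one receptor to be set beside another. The TMM factors were 0.921 to 0.946 at 6 months and 1.04 to 1.10 at 24 months. Under this scaling the log2 fold changes (24 against 6 months) of the 32905 genes tested had a median of 0.15, and those of the 15793 genes above 1 CPM had a median of -0.14. With library totals alone, the latter was 0.05. Sensory receptor genes (Olfr, Vmn1r and Vmn2r), most of which are thought to be silent in cortex, had 0.0547 to 0.0938 CPM per exonic kb at 24 months and 0.0201 to 0.0231 at 6 months. At that density, background would make up at most 4.65% of the Grm4 count, 3.17% of the Grm8 count and under 1% of the count of each of the other receptors in any library.

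All 6 receptor mRNAs were detected well in every cortex, and 5 of them were lower at 24 months. Grm7, Grm5, Grm2, Grm8 and Grm3 fell to between 62.9% and 78.5% of their 6-month levels, and only Grm4 did not pass the test. The test was the quasi-likelihood test of edgeR with Benjamini-Hochberg adjustment over all genes tested, and all 6 receptors passed its filter of 10 counts over the 6 libraries. It was read at an FDR of 10%, because this test was known to call no gene at 1% in these data. At 10% FDR, 8.33% of all genes tested were lower at 24 months and 10.0% were higher. Of the 2742 lower genes 2548 had at least 10 CPM, against 55 of the 3299 higher genes. Among the 10026 genes of at least 10 CPM, the range in which all 6 receptors lie, 25.4% were lower and 0.549% were higher. At 1% FDR the test called 0 of the 6 receptors and 0 genes in all, of 10096 genes with an unadjusted p under 0.05. In bulk tissue, fewer cells of a type and less RNA per cell cannot be told apart.

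**Figure D1:**
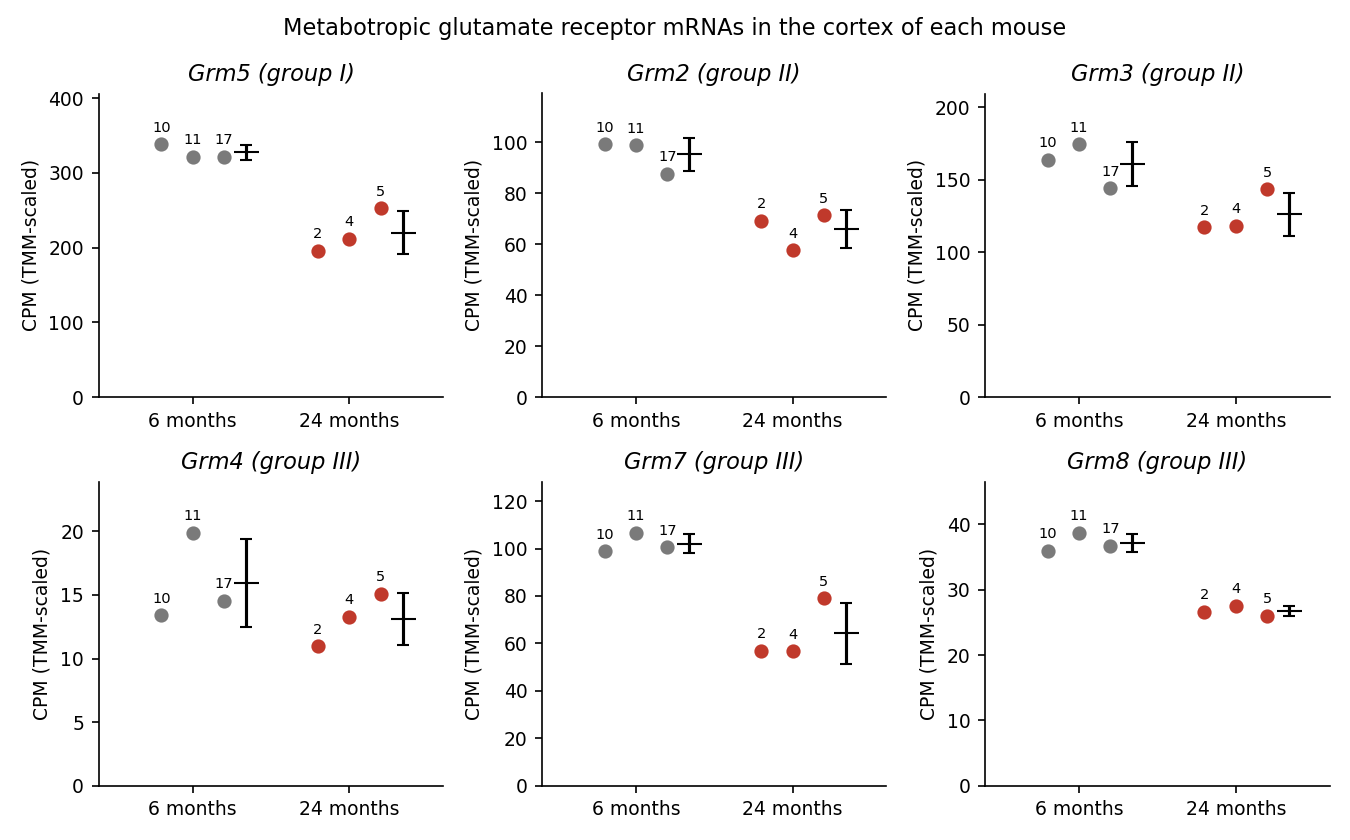
TMM-scaled CPM of the 6 receptors (linear axes from 0) in the cortex of each 6-month mouse (grey) and 24-month mouse (red), with mouse numbers above the points and the mean ± SD of the 3 mice beside them. For Grm5, Grm2, Grm3, Grm7 and Grm8 all 24-month mice lie below all 6-month mice, by a wide margin for Grm5 (195.9 to 252.4 against 321.7 to 338.5) and narrowly for Grm3 (117.2 to 143.5 against 144.2 to 174.6), while the ages overlap for Grm4.

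Grm5 (ENSMUSG00000049583.15, chr7:87584168-88134907, plus strand, GRCm38) encodes mGlu5, the group I receptor of the forebrain, which drives calcium release and protein kinase C and takes part in long-term depression. It had 338.5, 321.7 and 321.7 CPM in the 6-month mice 10, 11 and 17, and 195.9, 211.8 and 252.4 CPM in the 24-month mice 2, 4 and 5. The 6-month mice were close to one another, with a coefficient of variation of 2.97% against 13.2% at 24 months, and the ages did not overlap. The means were 327.3 ± 9.72 and 220.0 ± 29.1 CPM (SD, n = 3 per age), and Grm5 fell by 0.57 on the log2 scale (SE 0.11, edgeR quasi-likelihood adjusted p = 0.0518). Of the genes of at least 10 CPM, 2.17% had a lower log2 fold change. The counts behind these values, 6357 to 11108 per library, were the highest of the 6 receptors.

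Grm2 (ENSMUSG00000023192.12, chr9:106643095-106656082, minus strand) encodes mGlu2, a mainly presynaptic receptor of the perforant path and corticothalamic terminals. Its level was 99.2, 98.8 and 87.7 CPM in the 6-month mice 10, 11 and 17 and 69.1, 57.5 and 71.3 CPM in the 24-month mice 2, 4 and 5. No 24-month mouse reached the lowest 6-month mouse, which was mouse 17. The means of 95.2 ± 6.54 and 66.0 ± 7.42 CPM (SD, n = 3 per age) gave a log2 fold change of -0.53 (SE 0.11, edgeR adjusted p = 0.0518). Grm3 (ENSMUSG00000003974.6, chr5:9485541-9725170, minus strand), its group II partner in neurons and glia, had 163.9, 174.6 and 144.2 CPM at 6 months and 117.2, 118.3 and 143.5 CPM at 24 months in the same order of mice. The ages were apart by less than 1 CPM, between the 24-month mouse 5 and the 6-month mouse 17. Grm3 fell by 0.35 on the log2 scale (SE 0.11, edgeR adjusted p = 0.0831), the smallest fall among the receptors called, with means of 160.9 ± 15.4 and 126.3 ± 14.9 CPM (SD, n = 3 per age). In the deposited TPM the ages overlapped for Grm3 (166.6 to 202.6 against 146.4 to 179.1). Its log2 fold change was lower than those of all but 19.8% of the genes of at least 10 CPM, against 3.43% for Grm2.

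Grm7 (ENSMUSG00000056755.13, chr6:110645581-111567230, plus strand) encodes mGlu7, a receptor of low glutamate affinity that acts when release is strong. Its level was 98.9, 106.7 and 100.5 CPM in the 6-month mice 10, 11 and 17 and 56.8, 56.7 and 79.1 CPM in the 24-month mice 2, 4 and 5. The 24-month mice 2 and 4 were nearly alike and mouse 5 lay between them and the 6-month mice. Grm7 had the largest fall of the 6 receptors, by 0.67 on the log2 scale (SE 0.13, edgeR adjusted p = 0.0518), from 102.0 ± 4.09 to 64.2 ± 12.9 CPM (SD, n = 3 per age), and 0.948% of the genes of at least 10 CPM had a lower log2 fold change. Grm8 (ENSMUSG00000024211.15, chr6:27275119-28135178, minus strand) encodes mGlu8, a presynaptic receptor of high glutamate affinity. It had 36.0, 38.8 and 36.7 CPM at 6 months and 26.6, 27.6 and 26.0 CPM at 24 months. These were the tightest groups of the 6 receptors at 24 months, and the ages were well apart. Grm8 fell by 0.47 on the log2 scale (SE 0.10, edgeR adjusted p = 0.0518), from 37.2 ± 1.43 to 26.7 ± 0.775 CPM (SD, n = 3 per age).

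Grm4 (ENSMUSG00000063239.17, chr17:27422387-27521403, minus strand) encodes mGlu4, best known from cerebellar granule cell terminals, and was the least abundant receptor. It had 13.4, 19.9 and 14.6 CPM in the 6-month mice 10, 11 and 17 and 11.0, 13.3 and 15.1 CPM in the 24-month mice 2, 4 and 5, from 356 to 687 counts per library. The ages overlapped, and mouse 11 alone lay above all others. The log2 fold change was -0.28 (SE 0.18, edgeR adjusted p = 0.294), with means of 15.9 ± 3.47 and 13.1 ± 2.07 CPM (SD, n = 3 per age). Without mouse 11 it was -0.05.

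The calls depended on single mice, as did those of all genes. Without the 6-month mouse 10 or 11, or without the 24-month mouse 2 or 4, 0 of the 6 receptors passed 10% FDR (edgeR adjusted p of 0.109 to 0.359 for the 5 receptors called), and of all genes tested only 0, 1, 176 and 0 passed in these 4 fits, against 6041 with all mice. By contrast, all 5 receptors passed without mouse 17 or mouse 5, with 2476 and 7997 genes in all. Across these fits the log2 fold changes of the 5 stayed between -0.84 and -0.25. Scaling by library totals alone gave -0.48 for Grm7, -0.38 for Grm5, -0.34 for Grm2, -0.28 for Grm8, -0.16 for Grm3 and -0.10 for Grm4, and the adjusted p of Grm8 (0.109) and Grm3 (0.334) then missed 10% FDR. Once the sensory receptor background was subtracted from every gene, the receptors ranged from -0.53 (Grm7) to -0.18 (Grm4), the median of genes above 1 CPM moved to -0.03, and 0 receptors and 28 genes in all passed 10% FDR. Among the other tools, the likelihood ratio test of edgeR called 3 receptors at 1% FDR (Grm7, adjusted p = 0.00292, Grm5, 0.00344, and Grm2, 0.00775), while DESeq2's Wald test called Grm5 and Grm7, as did the exact test of edgeR. Over all 32905 genes, in either direction, 1703 passed 1% FDR with the likelihood ratio test and 1122 with the exact test. With the Wald test 227 passed, and 5745 genes had no adjusted p. Counted without a test, 5 of the 6 receptors had all 24-month mice below all 6-month mice in TMM-scaled CPM, as had 16.2% of all genes tested and 45.6% of the genes of at least 10 CPM, while 20.0% of all genes tested had them all above. With library totals, or with the deposited TPM, 4 of the 6 did, all but Grm3 and Grm4, against 4.75% and 8.65% of all genes tested, and 30.9% and 25.8% had all 24-month mice above.

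**Figure D2:**
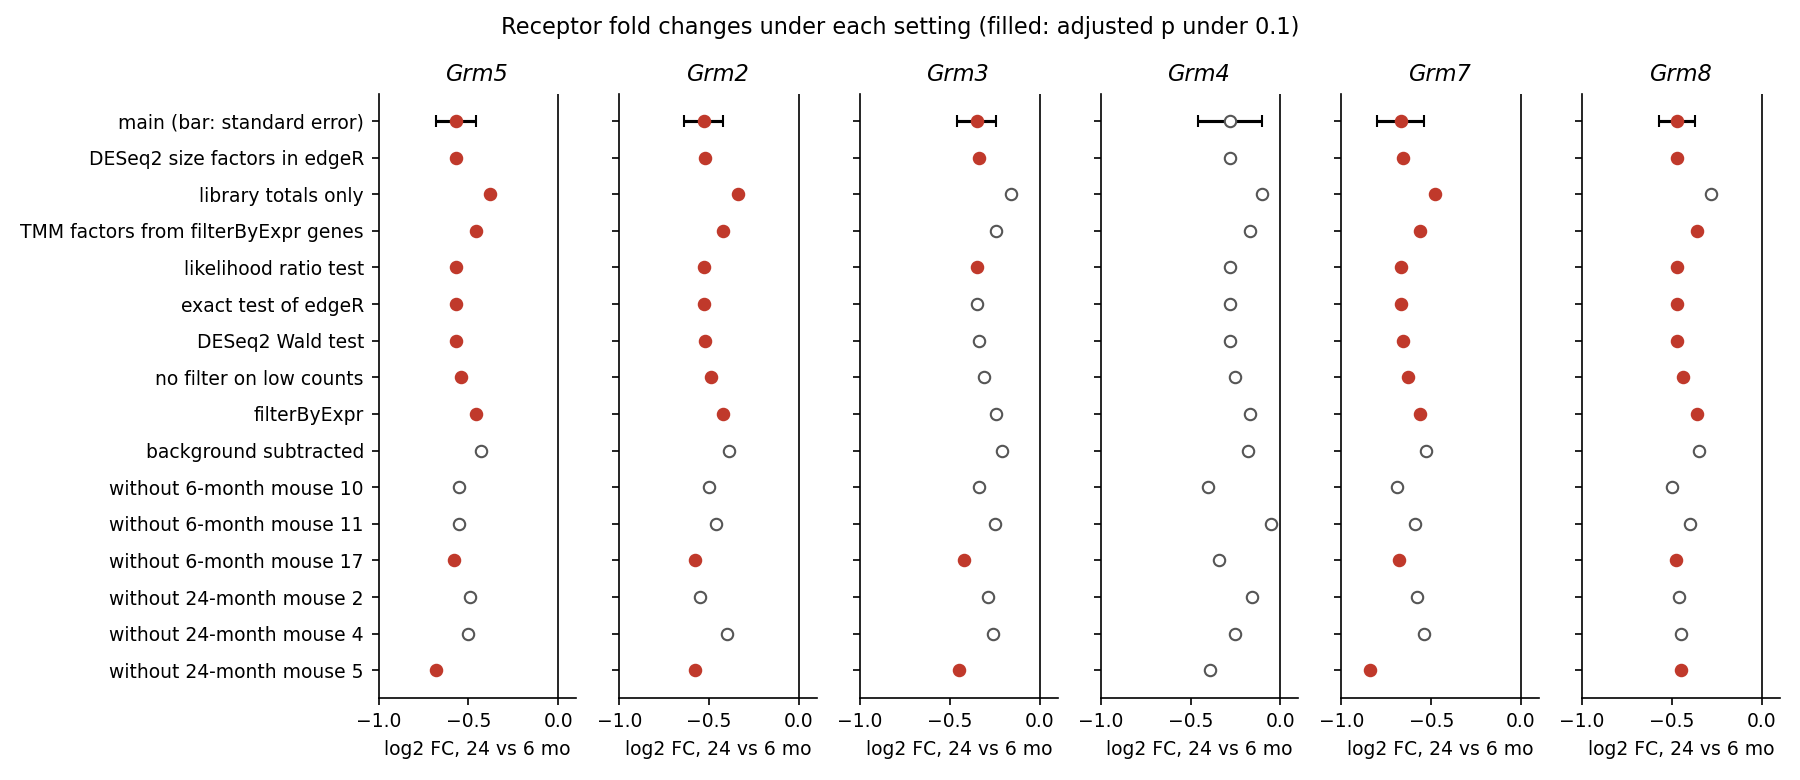
Log2 fold change (24 against 6 months, linear axis) of each receptor under every scaling, test, filter and left-out mouse, one row per setting, with filled red points where the adjusted p was under 0.1 and open points elsewhere, and the bar on the top row marking the standard error. All points lie below 0, from -0.84 to -0.05, and the points of all 6 receptors are open where background was subtracted and where mouse 10, 11, 2 or 4 was left out.

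Set side by side per length, the receptors kept the same order at both ages. Grm3 was highest, with 185.7 ± 18.1 TPM at 6 months and 157.7 ± 18.6 TPM at 24 months (SD, n = 3 per age). Grm5 followed with 112.4 ± 2.67 and 81.8 ± 10.8 TPM, Grm2 with 68.5 ± 4.64 and 51.3 ± 5.78 TPM, and Grm7 with 61.0 ± 2.80 and 41.5 ± 8.33 TPM. Grm8 (13.2 ± 0.585 and 10.3 ± 0.297 TPM) and Grm4 (9.40 ± 2.10 and 8.35 ± 1.31 TPM) were far lower. Of the neighbours in this order, only Grm2 and Grm7 had overlapping ranges, 63.1 to 71.4 TPM against 58.7 to 64.1 TPM at 6 months, and 44.7 to 55.5 TPM against 36.6 to 51.1 TPM at 24 months. The mRNA of Grm3, the receptor shared by neurons and astrocytes, thus stood above the group I receptor at both ages, and the group III receptors Grm8 and Grm4 came last.

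The summed TPM of the 6 receptors was 453.4, 475.0 and 422.2 in the 6-month mice 10, 11 and 17 and 327.1, 326.7 and 399.1 in the 24-month mice 2, 4 and 5, without overlap. Grm3 made up 41.2% ± 1.61 of it at 6 months and 44.9% ± 0.216 at 24 months (SD, n = 3 per age), and Grm7 made up 13.6% ± 0.654 and 11.8% ± 0.914. In both cases the ages did not overlap. The shares of Grm5 (25.0% ± 1.46 and 23.3% ± 0.922), Grm2 (15.2% ± 0.367 and 14.7% ± 1.54), Grm8 (2.94% ± 0.148 and 2.96% ± 0.397) and Grm4 (2.08% ± 0.379 and 2.38% ± 0.225) overlapped between the ages. Both group II receptors together held 56.4% ± 1.74 at 6 months and 59.6% ± 1.38 at 24 months, without overlap, and the 3 group III receptors held 18.6% ± 0.989 and 17.1% ± 0.610, with overlap. The shares within a mouse depend on one another and were not tested.

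**Figure D3:**
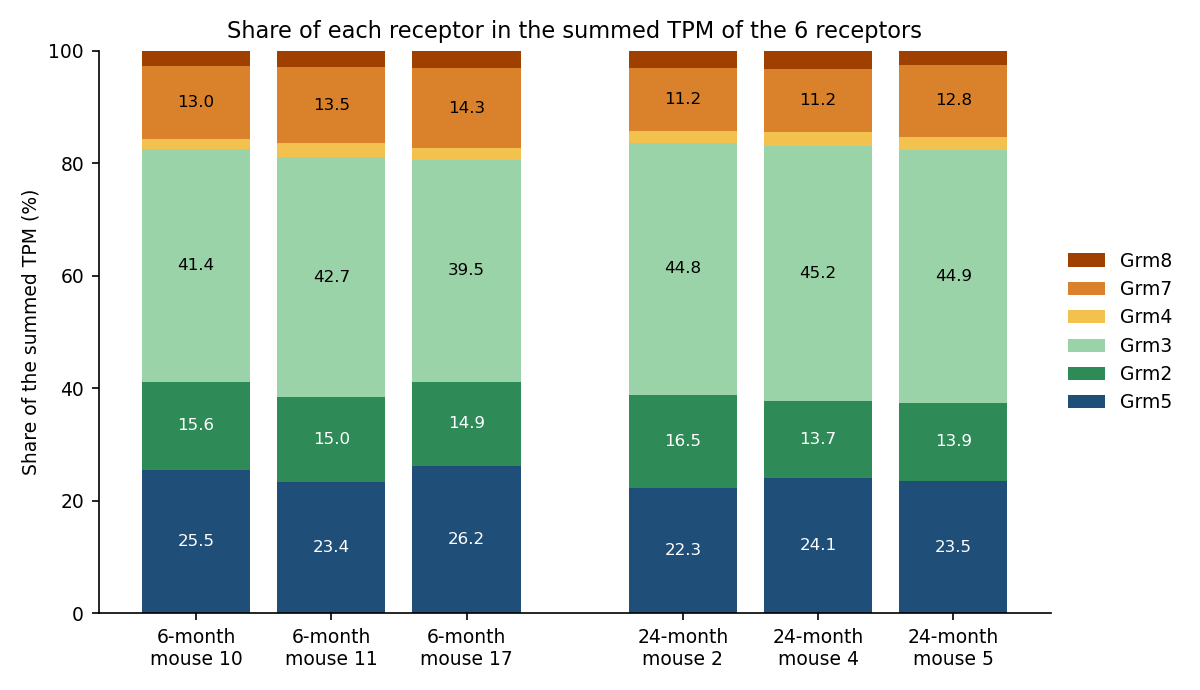
Share of each receptor in the summed TPM of the 6 receptors (stacked bars, 1 per mouse, percent from 0 to 100, values printed for shares above 8%). The Grm3 share is 39.5% to 42.7% in the 6-month mice and 44.8% to 45.2% in the 24-month mice, and the Grm7 share is 13.0% to 14.3% against 11.2% to 12.8%.

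Of the 15 ratios between 2 receptors, which do not depend on the scaling of a library, 3 had the ages apart. Grm3 to Grm7 was 3.20, 3.16 and 2.77 in the 6-month mice 10, 11 and 17 and 3.98, 4.03 and 3.50 in the 24-month mice 2, 4 and 5, so Grm3 was higher relative to Grm7 in every 24-month mouse. Grm5 to Grm3 was 0.615, 0.548 and 0.664 at 6 months and 0.498, 0.533 and 0.523 at 24 months, with the ages apart by little. Grm4 to Grm7 was 0.133, 0.184 and 0.143 at 6 months and 0.190, 0.231 and 0.188 at 24 months. Grm7 to Grm8 varied little at 6 months (4.62 ± 0.0131, SD, n = 3) and lay on both sides of that value at 24 months (3.46 to 5.11). The ratios are given without a test, and they share receptors and so are not independent. With 3 mice against 3 an exact permutation test gives no p below 0.1, the p of any 1 ratio with the ages apart.

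Across the 6 libraries, which share the age groups and the scaling, the log2 CPM of the receptors were correlated. Pearson's r was 0.98 between Grm5 and Grm7, 0.94 between Grm3 and Grm7, 0.92 between Grm2 and Grm7, and 0.91 for Grm5 with Grm2 and with Grm3. Grm8 had r of 0.80 to 0.89 with these 4, and Grm4 had 0.53 to 0.77 with the other receptors. Among 10025 genes of at least 10 CPM searched over the 6 libraries, the genes closest to Grm5 were Tenm1 (r rounding to 1.0), a teneurin of synaptic adhesion, and Arsa (0.999), the lysosomal arylsulfatase A. Closest to Grm2 were Ggt7 (0.997) and Atp5g1 (0.996), a subunit of mitochondrial ATP synthase, and closest to Grm3 were Lrtm2 (0.998) and Cep120 (0.998), a centrosomal protein. For Grm7 they were Susd6 (0.999) and Csf1r (0.998), the CSF1 receptor of microglia, for Grm8 Ippk (0.998), an inositol phosphate kinase, and Mpped2 (0.997), and for Grm4 Itga3 (0.989), an integrin subunit, and Abl1 (0.983), a tyrosine kinase. Such values are common with 6 libraries in 2 ages, and from 108 genes (Grm4) to 2269 genes (Grm5) had r over 0.9 with a receptor.

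The genes that carry the receptors' signals were read from 5 lists with 68 genes in all, every one of which was tested. At 10% FDR 15 of them (22.1%) were lower and 1 was higher. Of all genes of at least 10 CPM, 25.4% were lower and 0.549% higher, and of all genes tested 8.33% and 10.0%. Most of the 68 reach 10 CPM, but some do not, among them Homer3, the higher one. The list medians are set beside -0.20, the median log2 fold change of the genes of at least 10 CPM, and -0.50 for the 6 receptors. Without mouse 10, 11, 2 or 4, fits in which at most 176 of all genes tested passed, 0 of the 68 were lower. Without mouse 17, 7 were, and without mouse 5, 19 were. Over the 15 alternatives the 16 genes called kept the direction of their change, which adds little because the alternatives reuse the same counts. Ncdn and Slc9a3r1 were called in 1 alternative (without mouse 5), Kcnj9 in 0 and the others in 5 to 10.

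Downstream of group I, 1 of 11 genes of the Gq branch was lower and 0 were higher (median -0.09). Plcb1, the phospholipase C that mGlu5 activates in forebrain, fell by 0.54 on the log2 scale (SE 0.16, edgeR adjusted p = 0.0702), from 415 ± 38.2 to 284 ± 71.9 CPM (SD, n = 3 per age). Prkcb, the most abundant of the list by TPM, had a log2 fold change of -0.02 (SE 0.22, edgeR adjusted p = 0.971), and Gnaq, the Gq alpha subunit itself, had -0.14 (SE 0.09, edgeR adjusted p = 0.324). Of the 11 scaffold and binding partners of group I receptors, 1 was lower and 1 was higher (median -0.02). Ncdn, encoding neurochondrin, which binds mGlu5, fell by 0.26 (SE 0.08, edgeR adjusted p = 0.0787), and Homer3, a low-abundance Homer with 6.58 ± 1.17 CPM at 6 months and 9.33 ± 0.505 CPM at 24 months, rose by 0.50 (SE 0.16, edgeR adjusted p = 0.0785). Shank1, a postsynaptic scaffold, had a log2 fold change of 0.75 with a wide error (SE 0.33, edgeR adjusted p = 0.159), and its ages overlapped.

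Downstream of groups II and III, 8 of 22 genes of the Gi/o branch were lower and 0 were higher (median -0.26). Rgs4, which ends G protein signals by speeding GTP hydrolysis, had the largest fall of the list, by 0.70 on the log2 scale (SE 0.12, edgeR adjusted p = 0.0518), from 1510 ± 164 to 926 ± 122 CPM (SD, n = 3 per age). The G protein subunits Gnai3, Gnaz and Gng3 fell by 0.52 (SE 0.10, edgeR adjusted p = 0.0518), 0.42 (SE 0.10, edgeR adjusted p = 0.0552) and 0.40 (SE 0.09, edgeR adjusted p = 0.0526). The other 4 genes called, the subunits Gnai1 and Gnao1, the adenylyl cyclase Adcy3 and the potassium channel Kcnj9, had log2 fold changes of -0.40 to -0.25. Gnb1, the most abundant of the list by TPM, had a log2 fold change of 0.10 (SE 0.13, edgeR adjusted p = 0.640). Of the 8 lower genes, Rgs4 limits the signal and the G protein subunits carry it.

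Of the 10 partners and desensitisation genes, 3 were lower and 0 were higher (median -0.10). Elfn2, a postsynaptic adhesion protein that binds group III receptors across the cleft, fell by 0.49 (SE 0.10, edgeR adjusted p = 0.0518), from 99.1 ± 9.27 to 70.5 ± 3.66 CPM (SD, n = 3 per age). Grip1, a PDZ scaffold, fell by 0.43 (SE 0.13, edgeR adjusted p = 0.0737) and Slc9a3r1, encoding the PDZ protein NHERF1, by 0.33 (SE 0.11, edgeR adjusted p = 0.0945), while Slc9a3r2 had a log2 fold change of 0.01 (SE 0.11, edgeR adjusted p = 0.971). Of the 14 genes that supply or clear glutamate and NAAG, the peptide transmitter that acts on mGlu3, 2 were lower and 0 were higher (median -0.13). Slc17a6, the vesicular glutamate transporter VGLUT2, fell by 1.03 (SE 0.33, edgeR adjusted p = 0.0825), from 15.9 ± 3.98 to 7.77 ± 3.65 CPM, and Slc1a1, the neuronal transporter EAAC1, fell by 0.42 (SE 0.12, edgeR adjusted p = 0.0685). The astrocyte genes Glul and Slc1a2, the most abundant of this list by mean TPM over the 6 libraries, had log2 fold changes of -0.09 (SE 0.08, edgeR adjusted p = 0.466) and 0.07 (SE 0.11, edgeR adjusted p = 0.680).

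**Figure D4:**
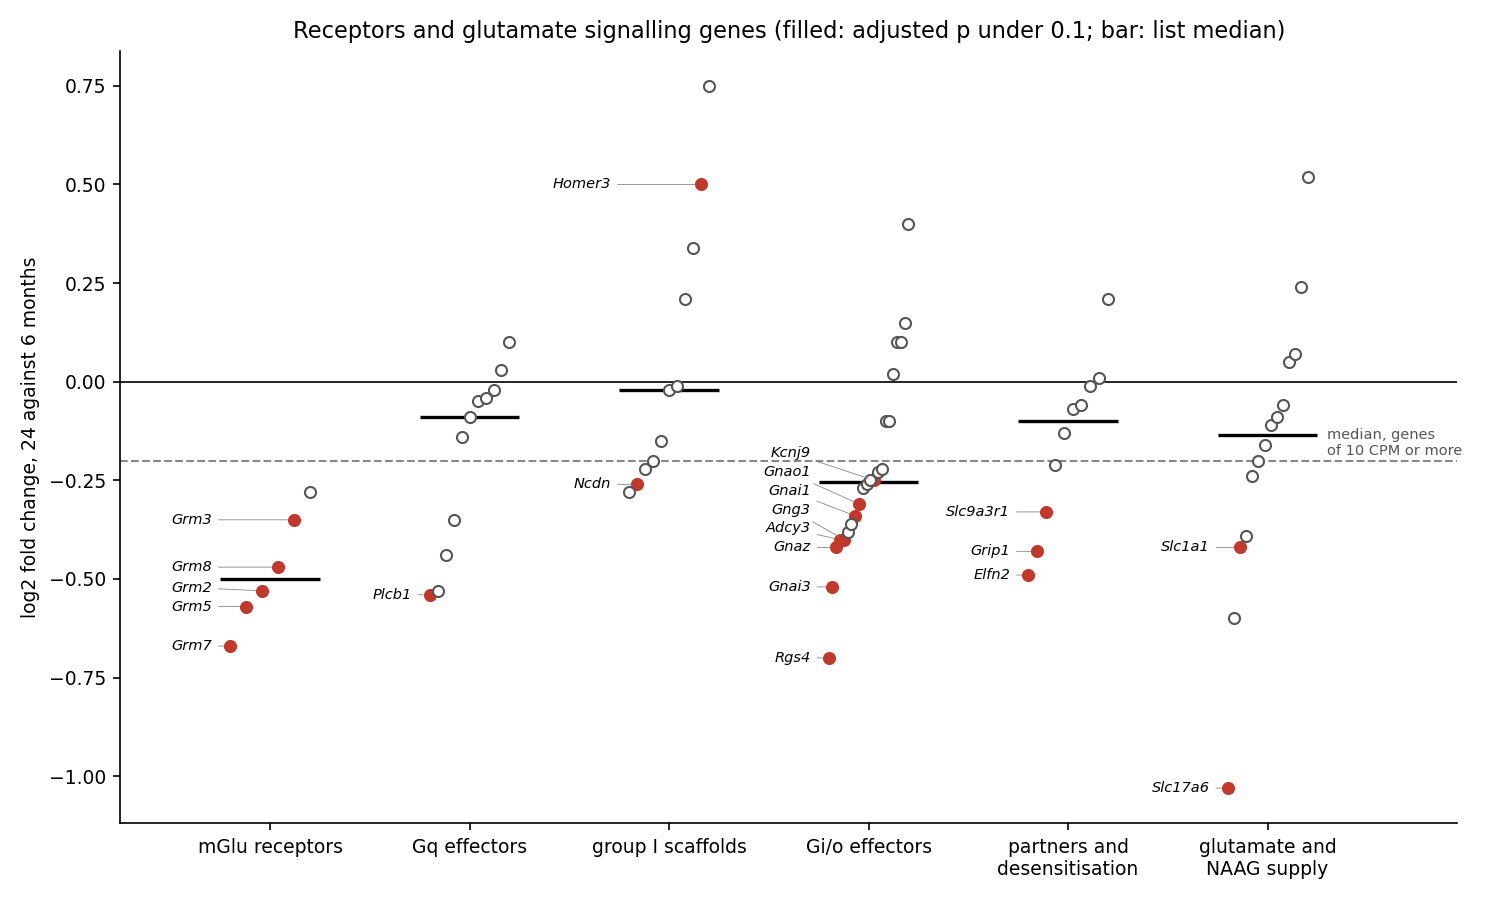
Log2 fold change (24 against 6 months, linear axis) of the 6 receptors and of the 68 genes of the 5 signalling lists, each point a gene, filled red and named where the edgeR adjusted p was under 0.1, with a bar at each list's median and a dashed line at -0.20, the median of genes of at least 10 CPM. The receptor median lies at -0.50, below those of the 5 lists (-0.26 to -0.02), and Homer3 (0.50) is the filled point above 0.

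The cortex label held in the markers of its cells, and none of the markers was at 0 in any library. Of the 8 neuronal markers 2 were lower at 10% FDR and 0 were higher, their summed CPM ran from 9105 to 10740 at 6 months against 6754 to 9039 at 24 months, and their median log2 fold change was -0.21. These are near the values of all genes of at least 10 CPM, of which 25.4% were lower and 0.549% higher, with a median of -0.20. The 8 excitatory neuron markers had 3 lower genes and a median of -0.34, with sums of 1121 to 1261 against 1018 to 1097 CPM. The 8 inhibitory neuron markers had 0 called genes, with sums of 834.4 to 881.0 against 626.1 to 838.5 CPM. Under TMM scaling the neuronal and excitatory sums were lower in all 24-month mice, as were Grm5, Grm2, Grm3, Grm7 and Grm8. So were 45.6% of the genes of at least 10 CPM. The 10 astrocyte markers, read beside Grm3, had 0 lower genes and 1 higher, with overlapping sums of 3435 to 3751 and 3409 to 3906 CPM. The 8 striatal markers, of a region that adjoins the dissected cortex and also uses mGlu5, had 3 lower genes and a median of -0.39, with sums of 237.9 to 259.8 against 163.3 to 222.9 CPM. The 4 oligodendrocyte precursor markers had 1 lower gene, and their sum was also lower in all 24-month mice (84.9 to 91.4 against 66.5 to 83.6 CPM). The sums of the other 7 lists (oligodendrocytes, microglia, endothelial cells, meninges, choroid plexus, red blood cells and immediate early genes) overlapped between the ages, with 1 lower and 1 higher microglial marker, 1 lower red blood cell marker and 0 called genes in the rest. The immediate early sum ran from 567.5 to 3252 CPM at 24 months against 1576 to 3190 CPM at 6 months. With library totals alone the neuronal (8564 to 9891 against 7431 to 9374 CPM), excitatory, oligodendrocyte precursor and striatal sums all overlapped between the ages. The astrocyte sum (3751 to 4051 against 3250 to 3528 CPM) and the microglial sum (517.7 to 556.5 against 460.3 to 475.1 CPM) were then higher in all 24-month mice. Under that scaling 30.9% of all genes tested were higher in all 24-month mice. The summed CPM of the 6 receptors was still apart (518.9 to 609.2 against 663.4 to 719.4). The part of any of these lists in the receptor differences was not tested.

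Reads of overlapping genes could be added to 3 receptors, in the case of Grm2 and Grm7 since the counting names no strand option. Grm2 shared 470 of its 4894 exonic bases with the antisense gene Gm28111, which had at most 9 counts, and Grm7 shared 130 of 5886 with the antisense Gm20387, which had at most 71. Grm8 shared 96 bases with the microRNA gene Mir592, which lies on the same strand and is listed at 0 counts. Grm5, Grm3 and Grm4 shared no exonic base with another gene.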

How the data were processed

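RNA-seq of the cortex of 3 mice of 6 months and 3 of 24 months was used. Per the labels, the authors trimmed reads with Trim Galore (version 0.6.4), mapped them to GRCm38 with STAR (version 2.7.3a) and counted them on genes with featureCounts (Subread 2.0.0). The deposited counts are not normalized, and 100% of them were whole numbers. The deposited TPM values were made by the authors from counts and exonic lengths, which equalled those of GENCODE vM21, used here for positions, within 5% for 100% of the 18942 genes checked.

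Counts were tested with the quasi-likelihood test of edgeR (version 4.0.16, R version 4.3.3) with TMM scaling, at least 10 counts over the 6 libraries, no covariates and Benjamini-Hochberg adjustment over the 32905 genes tested. The 210 rows that share a symbol were kept apart by identifier. Alternatives were other scalings, filters and tests (DESeq2 version 1.42.0 among them), subtraction of the sensory receptor gene density times exonic length from each count, and each mouse left out in turn. On simulated counts for 31657 genes, 100 well-counted genes were changed by each fold, up or down. At 10% FDR the test recovered 22% of the 1.5-fold and 86% of the 2-fold changes. The data had far more called genes (6041), so these shares need not hold for them. Totals of 29495379 to 36494240 counts per library set the precision.

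The receptors are fixed by their symbols, but they, the gene lists and the marker lists were chosen with earlier results of these data known. Named were all receptors, in each signalling list up to 4 genes past 10% FDR with the largest change and the 2 most abundant by TPM, and the 2 genes most correlated with each receptor. Gnai1, Gnao1, Adcy3 and Kcnj9 were named after their values were seen. Marker genes were read as lists, and 1 gene was taken out of the signalling lists because it is not reported here. Promoter windows are those of RefSeq. Other values and figures used Python (version 3.11.15).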

Additional observations from a re-analysis of the deposited data

How the results depend on the processing

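All 90 recomputed log2 fold changes of the 6 receptors (15 alternatives) were negative, but many of these signs could hardly differ. The likelihood ratio and exact tests reuse the counts and scaling of the main fit. For the 5 receptors whose ages did not overlap, leaving out a mouse keeps the ages apart unless the scaling shifts. How many of all genes kept their direction was not counted. The 5 receptors called at 10% FDR lost the call when background was subtracted (Grm5 -0.43, Grm2 -0.39, Grm3 -0.21, Grm7 -0.53, Grm8 -0.35). Grm3 also lost it with library totals (-0.16), TMM factors from the genes kept by filterByExpr (-0.24), filterByExpr (-0.24), no filter (-0.31), the exact test of edgeR (-0.35) and DESeq2 (-0.34), and Grm8 with library totals (-0.28). Without single mice the changes ran from -0.68 to -0.49 for Grm5, -0.58 to -0.40 for Grm2, -0.45 to -0.25 for Grm3, -0.40 to -0.05 for Grm4, -0.84 to -0.54 for Grm7 and -0.50 to -0.40 for Grm8. The receptors called at 10% FDR numbered 3 with library totals, 0 with background subtracted, and 0 to 5 without single mice. At 1% FDR they numbered 3 with the likelihood ratio test, 2 with the exact test and 2 with DESeq2.

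Of the 68 signalling genes, 15 were lower at 10% FDR, 2 with library totals, 4 with TMM factors from filterByExpr genes, 3 with filterByExpr, 0 with background subtracted and 0 to 19 without single mice. The number higher was 1, and 2, 2 and 0 with library totals, those TMM factors and background subtracted, and 0 to 4 without single mice. The cause of these differences was not tested. Genes called at 10% FDR numbered 6041 in all, 4436 with library totals, 3945 with TMM factors from filterByExpr genes, 1538 with filterByExpr, 4014 with no filter, 3048 with DESeq2, 28 with background subtracted and 0 to 7997 without single mice. At 1% FDR they numbered 0, and 1703 with the likelihood ratio test, 1122 with the exact test, 227 with DESeq2 (which gave no adjusted p for 5745 genes) and 42 with no filter. None of the 48 recomputed receptor shares moved by more than the spread between mice, but none could have. Shares from TMM-scaled CPM per exonic kb equal the TPM shares, and leaving out 1 of 3 mice cannot move their mean by 1 SD. No paired analysis was possible because the mice carry different numbers at the 2 ages. The depth limits Grm4 most, with 356 to 687 counts per library.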
